A study of Mus musculus with 6 samples.

Results

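Transcription factors that build and maintain T and B lymphocytes were read in inguinal fat of high and low weight gainers kept on the same diet. The list holds 10 genes, Stat4, Lef1, Gata3, Tcf7, Ikzf1, Ikzf3, Runx3, Bcl11b, Spib and Pou2af1, and every probe annotated to 1 of these symbols alone was taken. Of these, 7 genes had a named probe, each with 1 probe and a value on all 6 arrays. They are 7 of 13840 genes with a named probe on the array. Tcf7, Ikzf3 and Spib had no named probe, and their levels were not analysed here.

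Male C57BL/6J mice, an inbred strain, received a high saturated fat diet from 8 weeks of age for 4 weeks. RNA of inguinal fat, a subcutaneous depot, was combined from 8 high gainers into 1 pool and from 8 low gainers into another. Both pools thus share strain, sex, age and diet and differ in the weight that the mice gained. Each pool was hybridized to 3 one-color arrays, so n counts technical repeats of 1 pool and the p-values measure the spread between arrays, not between mice. Values are quantile-normalized signal intensities, and 15821 of 33012 probes had a value on all arrays. The call required a fold change of at least 1.5 and an adjusted p under 0.01, by limma with Benjamini-Hochberg adjustment. Across probes, which are not independent replicates, r was 0.988 to 0.994 within a pool and 0.972 to 0.98 between the pools. Over the tested probes the median log2 ratio, high over low, was 0.03. Fat tissue holds adipocytes with blood vessels, stroma and leukocytes, and the inguinal depot surrounds a lymph node.

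A lymphocyte takes its identity from a small set of DNA-binding proteins. Ikzf1 acts in early lymphoid progenitors, Gata3, Bcl11b and the paired HMG-box factors Tcf7 and Lef1 set the T lineage, and Runx3 acts in CD8 T cells and other cytotoxic lymphocytes. Stat4 relays interleukin-12 signals, and Spib, Ikzf3 and Pou2af1 act mainly in B cells. Several work outside lymphocytes as well. Gata3 is a factor of glandular epithelium and Lef1 carries Wnt signals to DNA in many tissues.

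Of the 7 measured factors, 6 were lower in high gainers than in low gainers and none was higher. Among all tested probes, 3.99% were called lower and 2.5% higher. The log2 ratios of the 6 called factors lay between -1.60 for Gata3 and -1.29 for Ikzf1, which is 3.04-fold to 2.44-fold lower. Runx3, at a log2 ratio of -0.29, was not called. By the methods' ANOVA with Benjamini-Hochberg adjustment none of the 6 passed the same threshold, with adjusted p of 0.0112 to 0.0368. The median over the 7 genes was -1.46, against 0.04 over the 8596 genes tested. All 3 high-gainer arrays lay below all 3 low-gainer arrays for each of the 6 called factors, an order that 16.3% of all tested probes showed. Each of the 6 was also at least 2-fold lower, as were 2.75% of tested probes. Stat4, Lef1 and Gata3 had been named from these same arrays by the study, so their decrease is not independent evidence for the group. In further samples the study found no Lef1 in retroperitoneal or epididymal fat or in the inguinal fat of many mice. It proposes that Lef1 came from lymphocytes trapped in the inguinal depot. Gata3 was dropped by the study as a candidate after other depots were read. Neither point was tested here. In pooled tissue RNA, fewer cells of a type and less RNA per cell cannot be told apart.

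**Figure D1:**
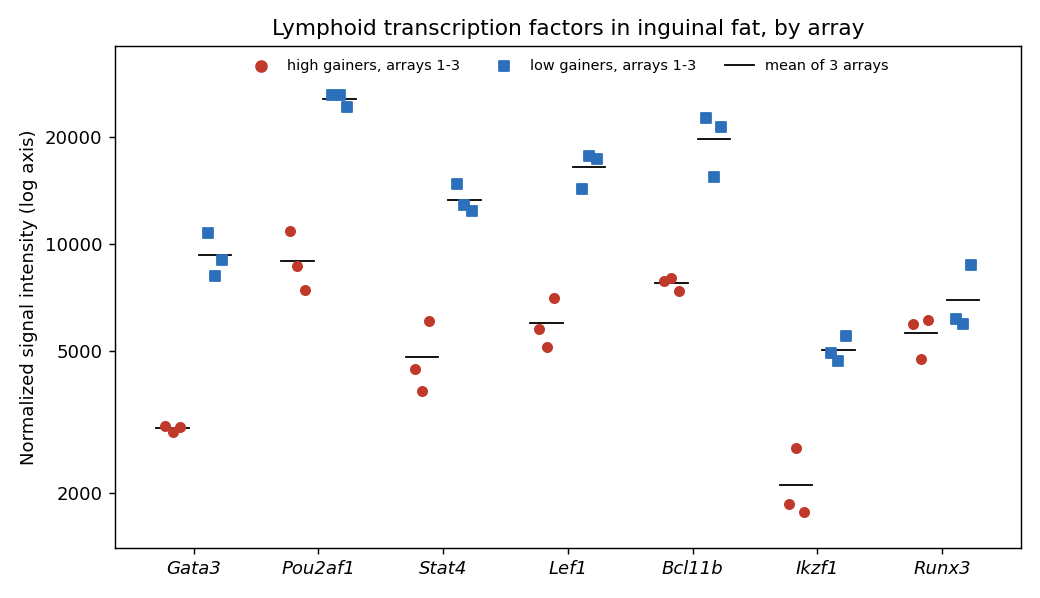
Normalized signal intensity (log axis) of each factor on every array, with red circles for high gainers (3 arrays), blue squares for low gainers (3 arrays) and short black lines for their means. The pools are separate for Gata3, Pou2af1, Stat4, Lef1, Bcl11b and Ikzf1, and they overlap for Runx3.

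Gata3, a zinc finger factor of T cells and of glandular epithelium, had the lowest ratio of the list. Its signal was 3075, 2965 and 3065 on the high-gainer arrays and 10738, 8103 and 9023 on the low-gainer arrays. The lowest low-gainer array was thus 2.64 times the highest high-gainer array. The difference was 3.04-fold (adjusted p = 0.000312 from limma), with a log2 ratio of -1.60 and a standard error of 0.12. The ratio was 129th in order from the lowest ratio among 15821 probes. The probe is dim, which here means a mean in the lowest 33.3% of tested probes. Of such probes 4.17% were called lower.

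Stat4, the transducer of interleukin-12 that favors type 1 helper T cells, had a signal of 4455, 3862 and 6086 in high gainers. In low gainers it was 14728, 12896 and 12345. High gainers replicate 3 was the array nearest to the other pool, and it remained at less than the lowest low-gainer value. High gainers were 2.82-fold lower, with a log2 ratio of -1.49 ± 0.17 (standard error) and an adjusted p of 0.00149 by limma. Without high gainers replicate 1 the adjusted p was 0.0103, which ended the call.

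Lef1, an HMG-box factor of the Wnt pathway that T cells and immature B cells express strongly, was at 5780, 5126 and 7028 in high gainers and at 14283, 17683 and 17334 in low gainers. The level was 2.76-fold lower in high gainers, a log2 ratio of -1.46 ± 0.15 (standard error), and limma gave an adjusted p of 0.000818. Bcl11b, a zinc finger repressor needed for T cell commitment, was at 7878, 7994 and 7348 in high gainers and at 22544, 15396 and 21265 in low gainers. Its 3 high-gainer values lay close together, while low gainers replicate 2 fell below the other low-gainer arrays. Bcl11b was 2.52-fold lower in high gainers, a log2 ratio of -1.33 ± 0.15, and limma gave an adjusted p of 0.00141.

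Ikzf1, or Ikaros, the zinc finger factor of lymphoid progenitors, had a dim probe. It was at 1858, 2666 and 1769 in high gainers and at 4939, 4674 and 5493 in low gainers, a difference of 2.44-fold. The log2 ratio was -1.29 ± 0.17, and limma gave an adjusted p of 0.00261. High gainers replicate 2 stood above the other arrays of its pool. The call was lost without high gainers replicate 1 (adjusted p = 0.0151), without low gainers replicate 1 (0.0119) and without low gainers replicate 3 (0.0117).

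Pou2af1, the B cell coactivator that joins octamer-binding POU factors on immunoglobulin promoters, was at 10854, 8640 and 7434 in high gainers and at 26178, 26187 and 24215 in low gainers. The low-gainer arrays were nearly equal and the high-gainer arrays spread more widely. Pou2af1 was 2.88-fold lower in high gainers, a log2 ratio of -1.52 ± 0.15, and limma gave an adjusted p of 0.000674. It is the measured factor of the list that acts mainly in B cells.

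Runx3, the runt-domain factor of CD8 T cells, was at 5971, 4745 and 6111 in high gainers and at 6143, 5946 and 8739 in low gainers. The pools overlapped, since low gainers replicate 2 lay below 2 of the high-gainer arrays. The log2 ratio was -0.29 ± 0.18 (adjusted p = 0.312 from limma), with a 95% interval of -0.71 to 0.12. The interval lies above the ratios of the other 6 factors, and it still allows a level 1.63-fold lower in high gainers. The probe is dim, and the highest low-gainer value came from low gainers replicate 3, without which the log2 ratio was -0.12.

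Whether the factors differ from each other was compared over 21 pairs, as the difference of their log2 ratios on the same arrays. The ratio of Runx3 differed from that of each of the other 6, by 0.99 (from Ikzf1) to 1.31 (from Gata3). The arrays did not overlap in any of these pairs, which all hold Runx3 and so are not separate results. The exact two-sided permutation p was 0.1 for each, the smallest that 3 arrays against 3 can give, and 0.3 after adjustment over the 21 pairs. Among the other 15 pairs, the arrays were separate in 1, Gata3 and Bcl11b, with a difference of -0.27. The exact permutation p of that pair was also 0.1, and 0.3 after adjustment. With 3 arrays against 3 this test cannot set any pair apart, those of Runx3 included.

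The 250 bases before and 50 after the start of transcription were examined for letters that the factors of the list and their relatives bind. RefSeq promoters (GRCm38.p6) were held for 9 of the 10 genes, with 16 starts in all. The sequences printed here are written 5′ to 3′ on the strand of the gene, with every match on either strand in capitals. They are those of Gata3, the factor with the lowest ratio and no match, of Bcl11b and Pou2af1, which fell with it, and of the upstream start of Runx3, which was not called.
Gata3, chr2:9878551-9878850, minus strand: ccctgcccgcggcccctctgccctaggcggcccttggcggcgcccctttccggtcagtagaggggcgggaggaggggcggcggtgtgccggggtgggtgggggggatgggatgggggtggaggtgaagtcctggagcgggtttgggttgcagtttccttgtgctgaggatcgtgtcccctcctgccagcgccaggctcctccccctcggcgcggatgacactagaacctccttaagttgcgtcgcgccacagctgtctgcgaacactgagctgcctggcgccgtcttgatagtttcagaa
Bcl11b, chr12:108003365-108003664, minus strand: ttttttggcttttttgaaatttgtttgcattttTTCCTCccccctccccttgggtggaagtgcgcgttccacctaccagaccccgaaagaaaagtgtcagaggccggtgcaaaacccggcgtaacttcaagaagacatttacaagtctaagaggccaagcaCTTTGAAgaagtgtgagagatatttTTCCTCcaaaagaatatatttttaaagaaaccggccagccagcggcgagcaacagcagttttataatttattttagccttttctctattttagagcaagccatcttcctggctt
Pou2af1, chr9:51213440-51213739, plus strand: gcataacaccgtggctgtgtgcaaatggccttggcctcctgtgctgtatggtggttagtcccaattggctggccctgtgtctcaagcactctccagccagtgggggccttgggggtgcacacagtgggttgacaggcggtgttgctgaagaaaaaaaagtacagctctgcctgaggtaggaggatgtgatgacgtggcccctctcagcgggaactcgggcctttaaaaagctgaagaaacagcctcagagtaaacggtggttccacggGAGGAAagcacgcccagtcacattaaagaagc
Runx3, chr4:135120395-135120694, plus strand: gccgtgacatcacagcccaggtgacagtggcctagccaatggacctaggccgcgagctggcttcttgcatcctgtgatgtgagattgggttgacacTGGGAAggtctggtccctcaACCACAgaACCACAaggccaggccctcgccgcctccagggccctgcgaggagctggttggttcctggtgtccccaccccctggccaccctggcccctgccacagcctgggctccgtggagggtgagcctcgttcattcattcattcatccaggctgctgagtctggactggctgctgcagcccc

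The letters searched were TTCNNNGAA for STAT proteins, TGGGAA for Ikaros, TGTGGT for RUNX, GAGGAA for the PU.1 group, to which Spib belongs, and ATGCAAAT for the octamer of POU factors. AGATAA or TGATAA stood for GATA factors. TCF and LEF were searched as CTTTGAA or as CTTTGAT or as CTTTGTT or as CTTTGTA. No motif overlapped another in the promoters printed. The Bcl11b promoter held CTTTGAA of TCF and LEF at position -89 from the start and the PU.1 letters at 2 places, and the Pou2af1 promoter held the PU.1 letters once, after the start. The upstream Runx3 promoter held the RUNX letters at 2 places and those of Ikaros once. Of all 32851 promoters of 300 bases, 16.9% held the TCF and LEF letters, 28.3% those of PU.1, 16.8% those of RUNX, 25.6% those of Ikaros, 18.6% those of GATA and 8.3% those of STAT. The octamer was in 1.74% of all promoters and in none of the 16 of the list. A match shows letters and not binding. The second start of Runx3, which was also searched, held no match.

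The families of these factors contain genes that other cells of fat use as well as further genes of leukocytes. Relatives of both kinds were read together, and 12 had values on all arrays. Of the 12, 2 were lower in high gainers and none was higher, where 4.04% of all genes were lower and 2.91% higher. Spic, a PU.1 relative of red pulp macrophages, was at 7277, 8456 and 8647 in high gainers and at 19672, 19683 and 18339 in low gainers (log2 -1.25, adjusted p = 0.000415 from limma). Pou2f2, the octamer-binding partner of Pou2af1 in B cells, was at 2196, 1552 and 1184 against 5839, 4509 and 4718 (log2 -1.65, adjusted p = 0.00297). Both were thus separate between the pools on every array. The call of Pou2f2, a dim probe, was lost without high gainers replicate 2 and without any 1 of the low-gainer arrays, with an adjusted p of up to 0.0151.

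The other relatives were not called, and each is given by its log2 ratio of high to low gainers. For the STAT genes these were -0.41 for Stat5a (standard error 0.13, adjusted p = 0.0813 from limma), -0.04 for Stat5b, -0.04 for Stat6 and -0.01 for Stat3, which carry hormone and cytokine signals in most cells. Stat5a was lower on every high-gainer array. Beside Lef1, Tcf7l1 had a ratio of 0.12. Beside Gata3, Gata2, a factor of preadipocytes and blood progenitors, had a ratio of 0.51 (adjusted p = 0.0914) and Gata6 one of 0.24 (adjusted p = 0.112), and for both the high-gainer arrays all lay above the low-gainer arrays, as they did for 20.3% of all tested probes. Beside Ikzf1, Ikzf4 had a ratio of -0.34 and Ikzf5 one of 0.05. Spi1, the PU.1 gene of myeloid and B cells, had a ratio of -0.64 with a standard error of 0.38 and overlapping arrays. Stat2 had a value on 2 high-gainer arrays (6869 and 7535) and on all low-gainer arrays (9513, 10394 and 8076), Gata1 on 1 array of each pool and Ikzf2 on 1 low-gainer array. Gata4, Gata5 and Pou2f3 were blank on every array. The median of the 12 relatives was -0.04, against -1.46 for the factors. The 95% intervals of Stat4, Lef1, Gata3 and Ikzf1 lay below those of their measured relatives.

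**Figure D2:**
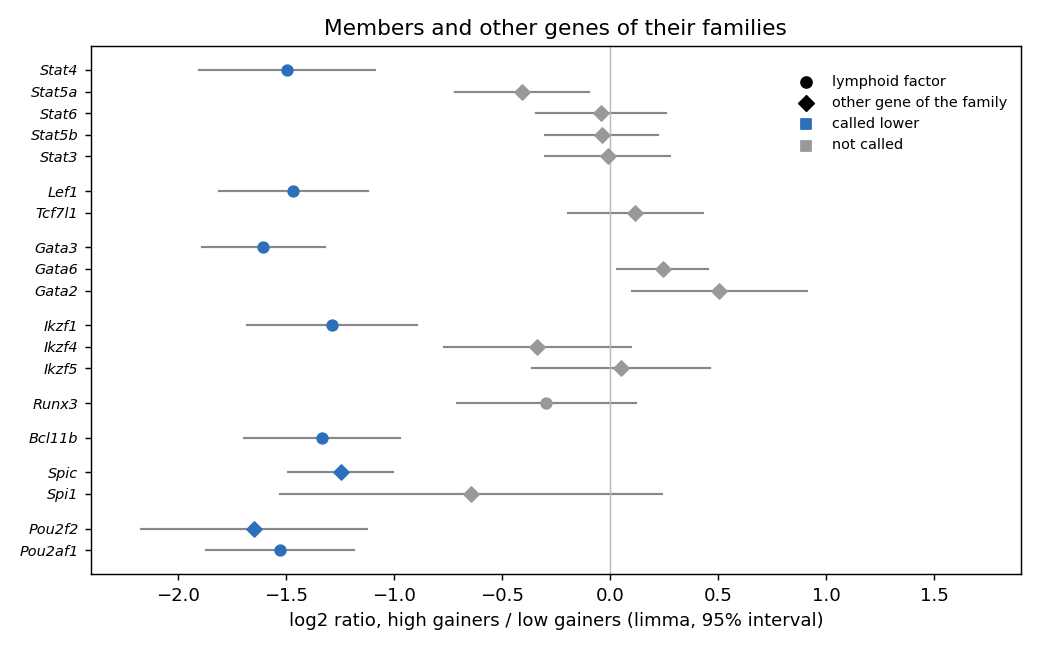
Log2 ratio of high to low gainers with the 95% interval from limma (horizontal axis) for the factors (circles) and for measured genes of the same families (diamonds), in blue where called lower and in gray where not called. Pou2af1 is set beside its partner Pou2f2, to which it is not related in sequence. Stat4 lies at -1.49 and the other STAT genes between -0.41 and -0.01.

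Partners, upstream receptors and known targets of the factors gave 17 genes with values on all arrays, of which 3 were lower, none was higher and 14 were not called. Of all genes, each tested by its brightest probe, 4.04% were lower and 2.91% higher. Ifng, the cytokine gene that Stat4 activates, was at 2102, 2291 and 2204 in high gainers and at 3877, 4201 and 4104 in low gainers (log2 -0.88 ± 0.09, adjusted p = 0.000896 from limma). Irf8, a partner of the PU.1 group in B cells and myeloid cells, had a log2 ratio of -1.26 (adjusted p = 0.000539). Pou2f2, given above, was the other. Subunits of general use were not called. They include Cbfb, the shared partner of RUNX proteins (log2 -0.22, adjusted p = 0.204), Ctnnb1, the β-catenin that binds Lef1 (0.05, adjusted p = 0.814), and the NuRD subunits Chd4 (-0.26, adjusted p = 0.139), Hdac1 (-0.28) and Mta2 (-0.24), which associate with Ikaros. Il12rb1, a receptor chain upstream of Stat4, had a ratio of -0.23 (adjusted p = 0.182) and Tyk2, its kinase, one of -0.37 (adjusted p = 0.0863). The median of these genes was -0.28. For 12 of the 17, all high-gainer arrays lay below all low-gainer arrays, an order that 16.3% of all tested probes showed. Cbfb, Chd4, Hdac1, Mta2, Il12rb1 and Tyk2 were among these 12, and Ctnnb1 was not. Il5, a cytokine gene that Gata3 activates, had values of 9170 and 12538 on 2 low-gainer arrays and was blank on all other arrays. Il4 and Axin2 had the reverse, a value on 1 high-gainer array only (856 and 1594). Jak2 was at 2282 and 1965 on 2 high-gainer arrays and at 1537 and 1668 on 2 low-gainer arrays. Il18r1 was at 797 and 781 on 2 high-gainer arrays and at 1417, 1264 and 1652 in low gainers. Il13, another target of Gata3, was blank on every array, as were Il12rb2 and Dntt.

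Among 17 other measured regulators of lymphocytes, 6 were lower, none was higher and 11 were not called. Over all genes, 4.04% were lower and 2.91% higher. Pax5, which holds B cells to their lineage, was at 2426, 2318 and 2514 in high gainers and at 5264, 6536 and 6949 in low gainers (log2 -1.36, adjusted p = 0.000577 from limma, a dim probe). Satb1, a chromatin organizer of thymocytes, was at 31598, 31203 and 28138 against 83583, 60090 and 64231 (log2 -1.18, adjusted p = 0.00169). Irf8, given above, was also lower. Myb, Relb and Ciita had ratios of -0.89, -0.61 and -1.03, and their calls depended on single arrays. Relb and Ciita were lost with any 1 array left out and Myb with 4 of the 6, so that this count fell to between 3 and 4. Tbx21, the type 1 regulator that works beside Stat4, had a ratio of -1.14 and just missed the call (adjusted p = 0.0104), and Eomes had one of -0.90 (adjusted p = 0.0308). Ebf1, needed by B cells and also expressed by adipocytes, had a ratio of -0.04 (adjusted p = 0.894), and Foxo1 one of -0.10. The median of these regulators was -0.61. Rel, an NF-κB gene, had a value on all 3 low-gainer arrays (1431, 2222 and 857) and on no high-gainer array. Foxp3, of regulatory T cells, was at 1182 and 1526 on the 2 high-gainer arrays with a value and at 2320, 2648 and 2779 in low gainers.

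Markers of the cells that use these factors were read beside them. Over all genes, 4.04% were called lower and 2.91% higher. Of 9 T lymphocyte markers with values on all arrays, from a list of 18, 7 were lower and none was higher, with a median log2 ratio of -1.65. Cd3d, a chain of the T cell receptor complex, was at 15534, 15160 and 15880 in high gainers and at 54418, 52769 and 50933 in low gainers. Cd3g and Cd8b1 had the lowest ratios of the list, at -1.85 and -1.82. Cd4 and Cd5 were not called, at -1.09 and -0.60, though their arrays were separate. Of 8 B lymphocyte markers, from a list of 12, all 8 were lower, with a median of -1.66, and Cd22 and Ms4a1 were the lowest of them at -2.05 and -1.92. The mean level of each list was taken as the mean log2 deviation of its genes from their own mean over the 6 arrays. For T lymphocytes this mean level lay between -0.87 and -0.58 in high gainers and between 0.64 and 0.84 in low gainers. For B lymphocytes it lay between -0.87 and -0.78 and between 0.83 and 0.84, and for the 7 factors between -0.70 and -0.61 and between 0.54 and 0.71. Cd3e was blank on 1 high-gainer array and Blk on all 3, and no other T or B marker with a named probe lacked a high-gainer value. The part of these cells in the result was not tested.

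**Figure D3:**
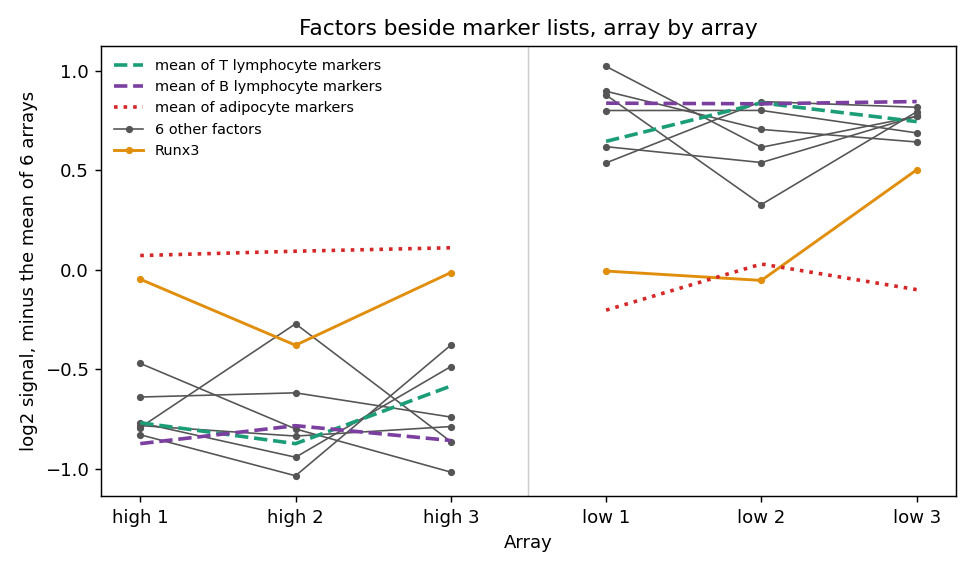
Log2 signal of each factor on each array after subtraction of its mean over the 6 arrays (vertical axis), with gray lines for 6 factors, orange for Runx3, green and purple dashes for the means of 9 T and 8 B lymphocyte markers and red dots for the mean of 10 adipocyte markers. Lines join arrays of 1 pool, whose order has no meaning. The gray and dashed lines are low on all high-gainer arrays and high on all low-gainer arrays, whereas the pools overlap for Runx3. Within a pool the gray lines do not run parallel to the dashed ones.

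Set against the mean of the T lymphocyte markers on the same array, the difference between pools was -0.01 for Stat4, 0.02 for Lef1, 0.15 for Bcl11b and -0.12 for Gata3 on the log2 scale, and the arrays of the pools overlapped for each. Pou2af1 differed from the mean of the B lymphocyte markers by 0.15, also with overlapping arrays. Ikzf1 differed from the mean of 5 markers of all leukocytes, such as Ptprc, by -0.19 with overlap. Other pairings gave separate arrays. Relative to the B lymphocyte markers, Ikzf1 was higher in high gainers by 0.39 and Bcl11b by 0.34, and relative to the leukocyte markers Gata3 differed by -0.51 and Pou2af1 by -0.43. Runx3 was higher relative to the T lymphocyte markers by 1.19, and here the high-gainer arrays all lay above the low-gainer arrays. The exact permutation p for 3 arrays against 3 cannot go under 0.1 here either.

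Genes of lymph node stroma, high endothelium and lymphotoxin were lower in 5 of 6 measured cases, with a median of -1.47. Of all genes 4.04% were lower. Ccl21a, the chemokine that draws T cells into the node, was at 197362, 202156 and 203361 in high gainers and at 576377, 513644 and 544026 in low gainers (log2 -1.44, adjusted p = 0.000206 from limma). Glycam1, a ligand of high endothelial venules, had a ratio of -1.55 and Ltb, lymphotoxin β, one of -1.70. Cxcl13, which guides B cells, was also called (-1.24), but not without high gainers replicates 1 or 2 or low gainers replicate 3. The mean level of this list lay between -0.73 and -0.63 in high gainers and between 0.61 and 0.71 in low gainers. Of 5 measured markers of all leukocytes, 4 were lower, with a median of -1.16, and Ptprc, the antigen CD45, was at -1.28. Cd53, a leukocyte tetraspanin, was at -1.24, a call lost without replicate 1 or 2 of high gainers.

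Not all leukocyte lists moved this far, and of all genes 4.04% were called lower and 2.91% higher. Of 9 NK cell markers, 2 were called lower, Klrd1 at -1.27 and Nkg7 at -1.20, with a list median of -0.56. For 7 of the 9, Gzmb among them, all high-gainer arrays lay below all low-gainer arrays, as did 16.3% of all tested probes. Prf1 and Gzmb, of the cytotoxic granule, were not called, at -0.18 and -0.53. Of 6 plasma cell markers, Mzb1 was lower, at -1.83, while Jchain, Xbp1 and Sdc1 were not called, at -0.31, -0.11 and 0.16. Irf4 at -0.59 and Tnfrsf17 at 0.38 were not called either. For Tnfrsf17 all high-gainer arrays lay above all low-gainer arrays, as did 20.3% of all tested probes. Of 8 macrophage markers, Marco was lower, at -1.30 (adjusted p = 0.00285), a call lost when replicate 2 of high gainers or replicate 2 or 3 of low gainers was left out. The macrophage median was 0.11, and Adgre1, the antigen F4/80, had a ratio of 0.01. Cd163, not called at 0.44, had all high-gainer arrays above all low-gainer arrays, and Lyz2, not called at -0.23, had the reverse. Of 10 adipocyte markers, Lep, the leptin gene, was higher at 0.83, and its call held in 2 of the 6 fits that left out an array, those without replicate 3 of high gainers or replicate 2 of low gainers. The adipocyte median was 0.18.

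Glandular epithelium also expresses Gata3, and its markers are set here beside all genes, of which 4.04% were lower and 2.91% higher. Of 8 epithelial markers with values on all arrays, 4 were lower and none was higher, with a median of -1.24. These were Krt18 at -2.65, Cdh1, or E-cadherin, at -2.07, Krt7 at -2.04 and Krt8 at -1.53. Epcam had a value of 1001 on 1 high-gainer array, none on the others, and 14220, 12152 and 11672 in low gainers. Krt19 and Cldn7 were blank on all high-gainer arrays and on low gainers replicate 2, with values of 2369 and 2336 for Krt19 and of 1023 and 1395 for Cldn7 on the other low-gainer arrays. Cldn3, Cldn4 and Elf3 were not called, at 0.19, -0.19 and -0.28, and Krt14 at -0.95 had an adjusted p of 0.0149. The mean level of the 8 markers lay between -0.70 and -0.48 in high gainers and between 0.50 and 0.67 in low gainers. The part of epithelium in the Gata3 result was not tested. Set against the mean of these markers, Gata3 had a log2 difference between pools of -0.41, with separate arrays.

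**Figure D4:**
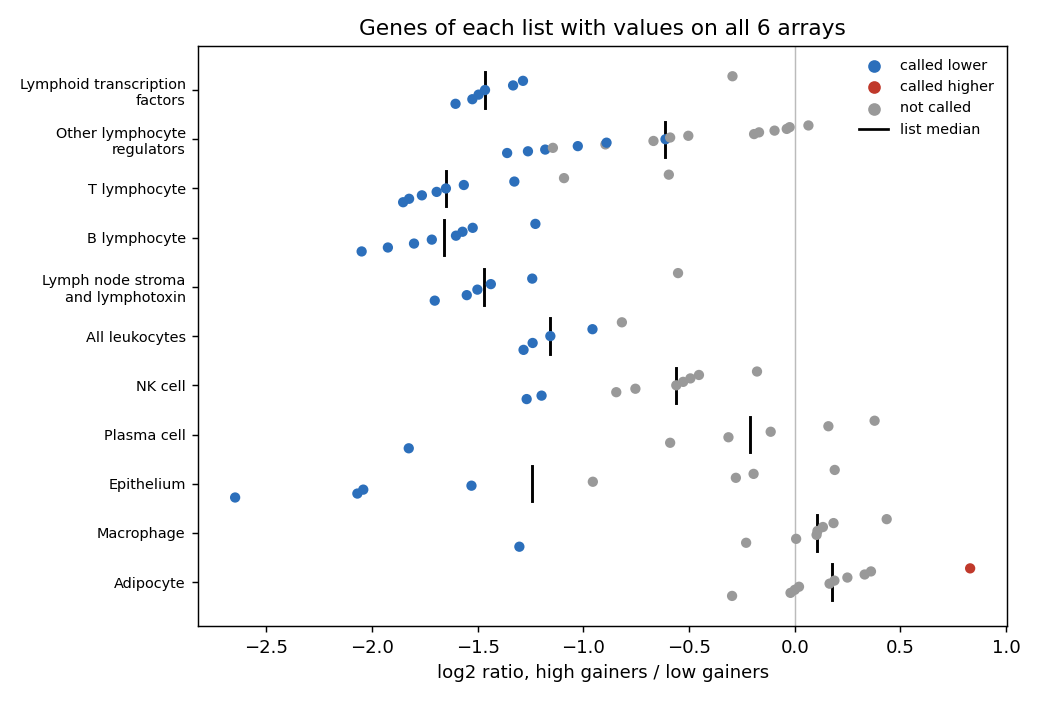
Log2 ratio of high to low gainers (horizontal axis) for each gene with values on all 6 arrays in 11 lists (rows). Points are genes, blue where called lower, red where called higher and gray where not called, and black lines are list medians. The medians are -1.46 for the factors, -1.65 for T and -1.66 for B lymphocyte markers, 0.11 for macrophages and 0.18 for adipocytes.

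The genes whose pattern was most like each factor were found over 8882 named probes, by the root mean square difference over the 6 arrays of log2 values, each centered on its own mean. Lef1 was nearest to Dok3 (0.05), an adaptor of B cell receptor signaling, and Rac2 (0.09), a hematopoietic GTPase. Gata3 was nearest to Cxcr5 (0.08), the chemokine receptor of follicular lymphocytes, followed by Klk1b26 and Btla. Tspan32 was the next for Lef1. Pou2af1 was nearest to Apobec3 (0.08), followed by Tmem163 and Ezr. Bcl11b was equally near to Map4k1 (0.09), a kinase of lymphocyte receptors, and to Srpk3 (0.09), a kinase of striated muscle, followed by Gpr171. Stat4 was nearest to Rpgrip1 (0.13), followed by Krt8 and Ptprcap, a protein associated with CD45. Ikzf1 was equally near to Cmah (0.13) and to Myot (0.13), which encodes a protein of the muscle sarcomere, followed by Kctd14. Runx3 had other neighbors, Ptgfrn (0.07), Cx3cl1 and Nkx2-5, whose log2 ratios were -0.25, -0.16 and -0.21. Likeness over 6 arrays of 2 pools rests largely on the ratio between the pools, and the nearest genes of the 6 called factors had log2 ratios of -1.72 to -1.24.

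Since muscle genes were among these neighbors, 22 genes of skeletal muscle were read, a list picked after their values were seen and described with no test of the list. Of 17 with values on all arrays, 13 were called lower in high gainers and none higher. Of all genes 4.04% were called lower and 2.91% higher. The log2 ratios of the 17 lay between -1.44 (Ckmt2, a mitochondrial creatine kinase) and -0.13 (Myl1), with a median of -0.86. Mb, or myoglobin, was at 7725, 5912 and 6970 in high gainers and at 13728, 19575 and 17440 in low gainers. The mean level of the 17 genes lay between -0.47 and -0.42 in high gainers and between 0.43 and 0.48 in low gainers. The part of muscle in the decrease of the factors was not tested.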

How the data were processed

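The authors hybridized labeled cRNA of each pool to 3 one-color chemiluminescent arrays and deposited signal intensity values on a linear scale after quantile normalization. Blank cells were treated as not measured. No genome build is named for the probes in the sources read.

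Intensities of the 15821 probes with 6 values were log2 transformed with no offset and compared with limma 3.58.1 in R 4.3.3 (lmFit and eBayes), with Benjamini-Hochberg adjustment over all of them. Arrays held 18018 to 20605 values, and their number limits the precision. Symbols came from an annotation table (14411 probes with 1 symbol, 247 with several, 18354 with none) and were updated through gene identifiers for 14402 probes. A gene with several probes was represented by its brightest. The test was checked on simulated data. Of 50 probes lowered 1.5-fold it called 4, of 50 lowered 2-fold 26, of 50 lowered 3-fold 32 and of 50 lowered 5-fold 41. Of 15621 unchanged probes it called 0. A gene that was not called is therefore not shown to be unchanged. The simulation changed far fewer probes than were called in the data, which makes the adjustment stricter, and its 1.5-fold set lay at the fold threshold. Its counts thus do not measure how many such changes were found in the data. Alternatives were another normalization, centering, filters, an offset, the variance model, the fold threshold, the methods' ANOVA, a replicate block and leaving out each array. The genes named are all members, their measured relatives, the 3 nearest patterns of each member and called genes of the lists, of which some marker genes are given only in the counts. Further genes were picked with their values in view. Members and lists were chosen with earlier results of these data known. Promoters are those of RefSeq, and motifs were matched exactly on both strands.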

Additional observations from a re-analysis of the deposited data

How the results depend on the processing

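The decrease of Gata3, Lef1, Bcl11b and Pou2af1 was called in every limma setting in which it was tested, with log2 ratios between -1.79 and -1.04 over these genes and settings, and Runx3 was called in none (-0.48 to -0.12). The ratio of Stat4 lay between -1.68 and -1.09 over the settings. That of Ikzf1, a dim probe, lay between -1.47 and -0.68, the smallest change being the one with an offset. No ratio of a factor changed sign. The number of factors called lower was 4 to 6 with 1 array left out, losing Stat4 and Ikzf1 without high gainers replicate 1 and Ikzf1 without low gainers replicates 1 or 3. It was 0 by the methods' ANOVA with Benjamini-Hochberg adjustment, where the adjusted p of the 6 factors was 0.0112 to 0.0368, but 6 by the same ANOVA at its unadjusted p, and 6 by either test at an unadjusted p under 0.05. Gata3, Ikzf1 and Runx3 were not tested without the dimmest probes, which left 4 called. Over all probes, 632 were lower and 396 higher. These became 402 and 98 at a 2-fold threshold and 111 and 46 by the adjusted ANOVA, and 368 to 493 and 105 to 319 with 1 array left out. Shifting the arrays by the mean change of 10 adipocyte markers, which moved each log2 ratio by -0.18, gave 130 higher and 904 lower. The deviations of arrays that share a number correlated at r = 0.04, -0.11 and 0.27. Arrays of different numbers were not compared in this way, so whether the numbers pair the arrays was not settled. With the array number as a replicate block 5 factors were called, Ikzf1 not (adjusted p = 0.0102), and 173 probes were higher and 446 lower. A fit without the other genes of the lymphoid lists, chosen after seeing the data, called 6 factors. Signal over background limits the dim probes, and no depth applies to arrays.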
